A study of Mus musculus with 12 samples.

Results

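The collagen genes of the mouse were followed in liver and quadriceps muscle of animals with a hypomorphic mutation of PGC-1beta and of controls. Members were the probe sets of the Affymetrix Murine 430 2.0 array that carry a single gene symbol made of Col, a number, the letter a and a number. This gave 82 probe sets of 42 genes among 45037 probe sets of 18193 named genes. By class there were 21 probe sets of 11 fibrillar collagen genes, 12 of 6 basement membrane collagen genes (the type IV chains) and 49 of 25 other collagen genes. The groups were mutant liver, control liver, mutant quadriceps muscle and control quadriceps muscle, all of the C57BL/6 strain, with 3 arrays each and 12 in all. The mutant animals were labelled PGC1beta mutant and the others control, and no treatment was named for any group. Age, sex, the kind of allele beyond hypomorphic and whether liver and muscle came from the same animals were not given in the sources used here. Nothing stated that the arrays of a group were separate animals beyond their numbering as samples, so p-values describe only how these samples scatter, which may be technical.

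Collagens are secreted proteins in which 3 chains wind into a triple helix. Fibrillar collagens pack into the cross-striated fibrils that give tissue its tensile strength, type IV collagens form the sheet-like network of basement membranes, and the remaining families decorate fibrils, form beaded filaments, span the cell membrane or carry large non-helical ends. In liver most fibrillar collagen is made by stellate cells and portal fibroblasts, while hepatocytes themselves make type XVIII collagen. In skeletal muscle fibroblasts make types I, III and VI, and each fibre is wrapped in a basement membrane. PGC-1beta, encoded by Ppargc1b, is a coactivator that works with nuclear receptors such as the estrogen-related receptors on genes of mitochondria and lipid metabolism.

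Values are normalised intensity, on a linear scale, after quantile normalization within a tissue. Differences are log2(intensity + 16) of mutant minus control, which understates the change of dim genes, and p-values come from limma, adjusted by the Benjamini-Hochberg method across every gene in that comparison and called under 0.05. Array medians as deposited ran from 32.8 to 36.1 in mutant liver, 27.2 to 40.1 in control liver, 20.1 to 21.7 in mutant muscle and 20.1 to 22.3 in control muscle. Ppargc1b, whose single named probe set may lie outside the mutated region and so need not check the labels, read 404, 494 and 203 in mutant liver and 547, 283 and 481 in control liver, with a difference of -0.28 (SE 0.317, adjusted p = 0.691). It read 423, 280.4 and 271 in mutant muscle and 302, 285 and 332 in control muscle (0.06, SE 0.167, adjusted p = 0.997). Tissue markers went with the labels, with a summed intensity over 8 hepatocyte markers of 90957 to 98075 across the liver arrays and of 102484 to 105588 over 10 muscle fibre markers across the muscle arrays. The mean log2 ratio of 3′ to 5′ signal of 3 control genes, which rises as RNA is degraded or copied incompletely, was 1.90, 0.90 and 1.87 in mutant livers 1, 2 and 3, against 0.74, 0.97 and 0.50 in control livers. In muscle it lay between 0.33 and 0.56 in mutants and between 0.40 and 0.52 in controls.

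Of the 42 collagen genes, 26 (39 probe sets) were bright enough to be tested in liver, and 33 (58 probe sets) in muscle. A gene was tested where its mean in the tissue exceeded the 40th percentile over probe sets, an intensity of about 21.6 in liver and 13.1 in muscle. There were 24 genes tested in both tissues and 7 tested in neither. Those 7 were Col10a1, Col17a1, Col24a1, Col26a1, Col6a5, Col9a2 and Col9a3. As each array holds RNA of a whole tissue, fewer cells of a type and less RNA per cell cannot be told apart.

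In mutant liver 1 of the 26 collagen genes tested was lower and 0 were higher. The lower gene was Col18a1, the chain of type XVIII collagen, a basement membrane zone proteoglycan whose carboxyl end is released as endostatin. Across all 13326 genes tested in liver 1.03% were called lower and 2.33% higher, and 3.35% were called in either direction. At an unadjusted p under 0.05 there were 3 of the 26 collagen genes, against 19.6% of all genes tested.

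Col18a1 was the brightest collagen in liver, with 1577, 2700.0 and 1536 in mutant livers 1, 2 and 3, against 4189, 3623 and 3628 in control livers. Every mutant liver was below every control liver, and mutant 2 was the nearest of the mutants to the controls. The means were 1938 ± 660.3 in mutant and 3813 ± 325 in control liver (SD, n = 3 arrays each). On the log2 scale mutants were at -1.02 from controls, with an SE of 0.194, a 95% interval of -1.45 to -0.59 and an adjusted p of 0.0260 by limma. The second probe set of the gene read 1394, 1832 and 1231 in mutant livers, against 3497, 2711 and 2651 in control livers. It too had no overlap between groups and the same order of the mutant livers. With each probe set tested on its own, over 27022 probe sets of which 0.614% were called lower, the differences were -1.02 (adjusted p = 0.0369) and -0.99 (adjusted p = 0.0269), and these were the only 2 of 39 collagen probe sets called in limma at this threshold, with 4 at an unadjusted p under 0.05.

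The fall of Col18a1 was deepest in the 2 mutant livers with the high 3′ to 5′ ratios. With the ratio as a covariate the difference was -0.453 (adjusted p = 0.631), and with mutant livers 1 and 3 both left out, which leaves mutant 2 as the lone mutant and assumes that it varies like the controls, it was -0.481 (adjusted p = 0.439). With any 1 array left out the difference stayed between -1.28 and -0.873, but it passed only without mutant 2 (adjusted p = 0.00641). It did not pass without mutant 1 (0.138), mutant 3 (0.0755), control 1 (0.0929), control 2 (0.0694) or control 3 (0.0659), nor without a variance trend (0.142), all adjusted p-values of limma. Few genes of any kind passed in those fits. There were 0 without mutant 1, control 2 or a variance trend, and 26 to 43 without mutant 3, control 1 or control 3. The main fit called 447 of 13326. Hepatocyte markers moved with it by little: 0 of 8 passed, the median difference was -0.03, and their summed intensity was 90957 to 94193 in mutant and 95964 to 98075 in control liver, with no overlap and none of the 8 at 0. The part of RNA quality in the result was not tested beyond these fits, and that of hepatocyte content was not tested.

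RefSeq gives Col18a1 on mouse chromosome 10 a pair of start sites on the minus strand, 52825 bases apart, and the probe sets do not tell which start was used. The 250 bases before each start are shown because Col18a1 carries the single call among collagens in liver. Capitals mark matches on either strand to 5 motifs. These were the TATA box as TATAAA, the CCAAT box as written, the GC box as GGGCGG, the nuclear receptor half-site as AGGTCA and the element of estrogen-related receptors as TNAAGGTCA, inside which the half-site lies, so that the last pair overlap. The build is GRCm38.p6, and window 1 is chr10:77113706-77113955 and window 2 chr10:77166531-77166780, both printed 5′ to 3′ on the minus strand.
Col18a1 window 1: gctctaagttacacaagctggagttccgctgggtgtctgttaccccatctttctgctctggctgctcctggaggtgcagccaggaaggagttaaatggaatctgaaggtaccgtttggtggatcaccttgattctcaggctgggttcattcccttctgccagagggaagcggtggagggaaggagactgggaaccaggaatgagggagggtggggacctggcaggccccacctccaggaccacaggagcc
Col18a1 window 2: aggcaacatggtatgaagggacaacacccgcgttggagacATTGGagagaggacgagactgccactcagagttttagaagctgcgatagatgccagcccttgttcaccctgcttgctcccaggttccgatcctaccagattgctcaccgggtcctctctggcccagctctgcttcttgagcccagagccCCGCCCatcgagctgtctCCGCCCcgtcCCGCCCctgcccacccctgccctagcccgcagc
The first window held none of the 5 motifs and the second held 1 CCAAT and 3 GGGCGG, all on the opposite strand to the one printed. Among 32851 windows of the same length before RefSeq starts, CCAAT was present in 33.8%, GGGCGG in 32.7%, TATAAA in 12.4%, AGGTCA in 14% and TNAAGGTCA in 1.14%.

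**Figure D1:**
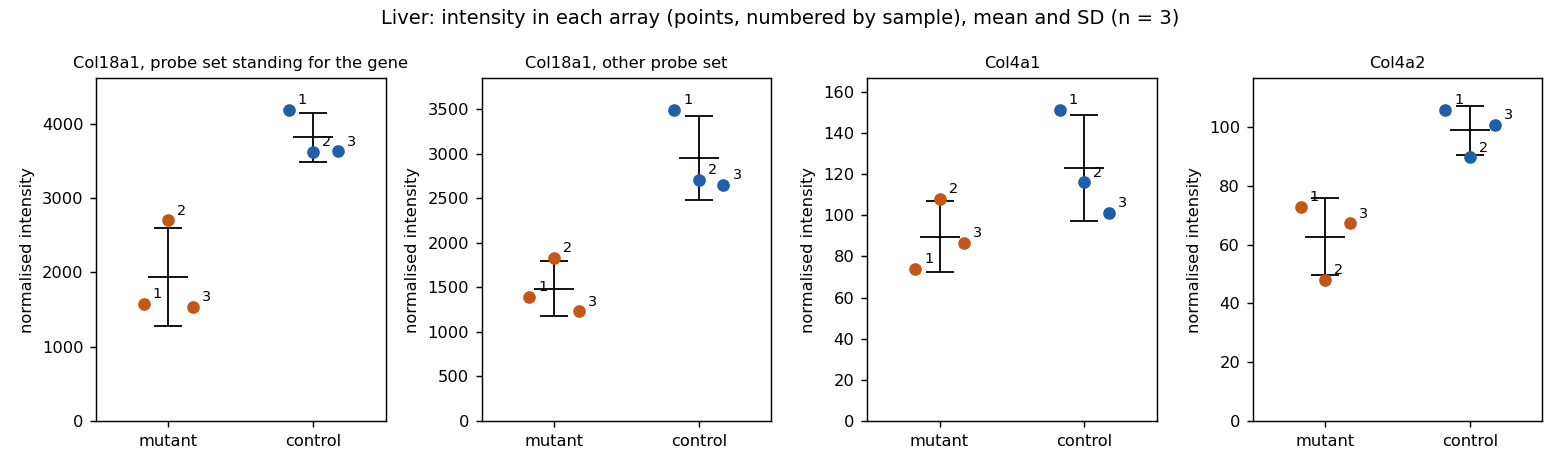
Normalised intensity (linear axis from 0) of both Col18a1 probe sets, Col4a1 and Col4a2 in each liver array, mutants left of controls; points are arrays numbered by sample, the wide bar is the mean and the whiskers are the SD (n = 3). Mutant livers lie below all control livers for both Col18a1 probe sets and Col4a2, and overlap them for Col4a1.

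Of the basement membrane collagens, 4 of 6 genes were tested in liver, and 0 passed. Col4a1 and Col4a2 encode the α1 and α2 chains that build the common type IV network. Col4a2 read 72.9, 48.0 and 67.3 in mutant livers, against 106, 89.9 and 101 in control livers. The groups did not overlap, yet Col4a2 did not pass, at -0.56 (SE 0.195, 95% interval -0.99 to -0.12, adjusted p = 0.149 by limma). Col4a1 read 74.0, 108 and 86.6 in mutant livers, against 151, 116 and 101 in control livers, so the groups overlapped (-0.39, SE 0.202, adjusted p = 0.321). Col4a6, an α6 chain, varied most among arrays, with 44.0, 5.28 and 78.9 in mutant livers and 49.8, 11.8 and 15.5 in control livers (0.36, SE 0.532, adjusted p = 0.775). The median difference of the 4 tested genes was -0.30, against 0.01 over all genes tested, with 1 gene above 0 and 3 below. It was 0.017 with no filter on low values, which brings in Col4a3 and Col4a4. Col4a1 and Col4a2 start 21 bases apart on opposite strands of chromosome 8 in RefSeq.

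Of the fibrillar collagens 7 of 11 genes were tested in liver and 0 passed. Their median difference was -0.11, with 3 above 0 and 4 below. Col1a2, the α2 chain of type I collagen, read 108, 105 and 137 in mutant livers, against 165, 119.8 and 114 in control livers (-0.16, SE 0.192, adjusted p = 0.711). Col3a1, the chain of type III collagen in reticular fibres, read 161, 118 and 160.3 in mutant livers, against 186, 130.3 and 112 in control livers (0.05, SE 0.211, adjusted p = 0.932). Col27a1, a fibrillar chain known from cartilage, read 214, 222 and 271 in mutant livers, against 323, 132 and 137 in control livers (0.34, SE 0.290, adjusted p = 0.574). In all of these the groups overlapped, and control liver 1 was the highest array. Col2a1, the main collagen of cartilage, had the smallest p of the class, with a difference of 0.52 (SE 0.270, adjusted p = 0.324).

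The other 15 tested collagens of liver had a median difference of -0.04, with 7 above 0 and 8 below, and only Col18a1 passed. Col14a1, which binds to the surface of fibrils, read 188, 173 and 199 in mutant livers, against 260.3, 201 and 179 in control livers (-0.17, SE 0.177, adjusted p = 0.671). Col6a2, a chain of the beaded filaments of type VI collagen, read 145, 162 and 134 in mutant livers, against 138, 67.9 and 167 in control livers (0.29, SE 0.265, adjusted p = 0.609). The groups overlapped for both. Col20a1, a fibril-associated collagen, was at 0.92 (SE 0.346, 95% interval 0.15 to 1.69, adjusted p = 0.176) on a dim signal of 59.2 ± 22.2 in mutant and 24.3 ± 14.9 in control liver. Its other 2 tested probe sets had differences of 0.06 and -0.18. Col6a3 (-0.29, adjusted p = 0.409) and Col12a1 (-0.23, adjusted p = 0.567), a further type VI chain and a fibril-associated collagen, did not pass either.

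Groups did not overlap for 4 of the 26 tested collagens in liver, all lower in mutants: Col18a1, Col4a2, Col6a3 and Col12a1. For comparison, 11% of all genes tested were lower and 13% higher without overlap. Of the 16 collagen genes too dim to be tested in liver, Col1a1 and Col5a2 were also lower in every mutant. The share without overlap over all genes below the liver filter is not given here. Col1a1, the α1 chain of type I collagen, read 5.02, 5.28 and 8.48 in mutant livers, against 52.6, 25.1 and 16.3 in control livers. Put through the same model with no filter its difference was -1.02 (SE 0.295, adjusted p = 0.133), whereas the second probe set of Col1a1, which was tested, had -0.33. Col5a2, a minor fibril chain, had -0.72 (adjusted p = 0.375) with no filter. The remaining 14 untested genes had adjusted p-values of 0.578 or more in that fit, and in it 0 collagens passed, since the adjusted p of Col18a1 was then 0.0564. Where several probe sets of a collagen were tested in liver, their differences had 1 sign in 6 of 9 genes.

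**Figure D2:**
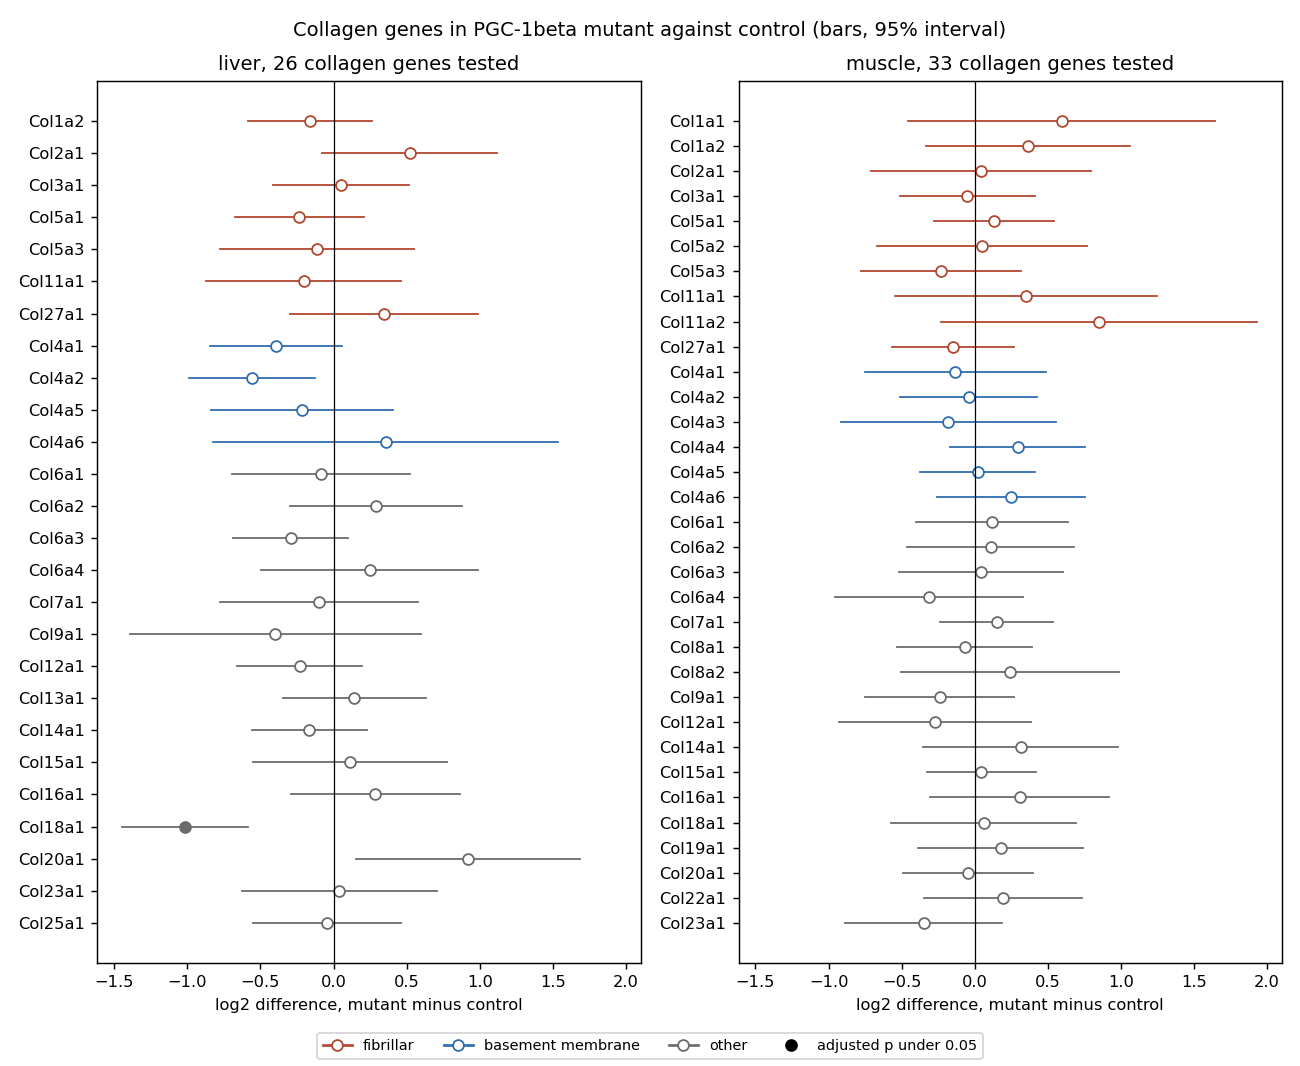
Log2 difference, mutant minus control, of each tested collagen gene (points) with its 95% interval (bars), 26 genes in liver and 33 in quadriceps muscle, coloured by class; filled points have an adjusted p under 0.05. Col18a1 in liver (-1.02) is the single filled point.

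Genes that make, bind and remodel collagen were followed in 7 lists beside the collagens. Of those that modify and secrete collagen, 15 were tested in liver and 1 fell, against 1.03% called lower among all genes tested. This was Mia3, also called TANGO1, which loads procollagen into carriers at the endoplasmic reticulum. It read 828, 1019 and 714 in mutant livers, against 1513, 1438 and 1376 in control livers (-0.76, SE 0.148, adjusted p = 0.0272). Of 16 proteins that bind fibrils 1 fell, Fn1, the fibronectin that hepatocytes release into plasma, with 2974, 5162 and 2895 in mutant livers, against 6931, 6590.2 and 6636 in control livers (-0.92, SE 0.188, adjusted p = 0.0310). Both had no overlap between groups, and mutant 2, with the low 3′ to 5′ ratio, was the mutant nearest to the controls. With that ratio as a covariate Fn1 was at -0.336 (adjusted p = 0.682) and Mia3 at -0.494 (adjusted p = 0.623). Leaving out any array other than mutant 2 ended both calls, in fits that called 0 to 43 genes of any kind. Neither passed on values as deposited or median centred (adjusted p = 0.0571 to 0.107), nor for the mean of a gene's probe sets, with Fn1 at -0.381 (adjusted p = 0.404) and Mia3 at -0.325 (adjusted p = 0.318). No other probe set of either gene passed on its own: that of Fn1 was at 0.16, and the 3 of Mia3 at -0.47, -0.24 and 0.18.

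The other 5 lists had 0 members past the threshold in liver. Their medians were -0.25 for procollagen cleavage and cross-linking (6 genes tested), -0.24 for collagen breakdown and uptake (12), -0.27 for collagen receptors (7), -0.15 for non-collagen basement membrane proteins (13) and -0.21 for the transforming growth factor beta pathway (14), against 0.05 for modification and secretion, -0.14 for fibril-binding proteins and 0.01 over all genes tested. The members with the smallest p had the following differences. Among enzymes that process collagen, the transglutaminase Tgm2 was at -0.59 (adjusted p = 0.0726) and Bmp1, the procollagen C-proteinase, at -0.43 (0.166). Among those that degrade it, Mmp19 was at -0.88 (0.0674) and the lysosomal protease Ctsb at -0.26 (0.128). Of the receptors, the integrin chains Itga2 and Itgb1 were at -1.21 (0.0691) and -0.55 (0.0855). Smoc1 and nidogen Nid1, of basement membranes, were at -0.79 (0.0643) and -0.37 (0.375), and the signalling proteins Smad7 and Smad2 at -0.49 (0.295) and -0.34 (0.355). The count of 0 depended on the fit. Of these 10 members Tgm2, Mmp19, Itga2 and Itgb1 passed in the fit of all 12 arrays (adjusted p = 0.0196 to 0.0413), Mmp19 with array weights (0.0483), and these 4 with Smoc1 and Smad7 without mutant 2 (0.0222 to 0.0470). The share of all genes called in those fits is not given here, so these passes cannot be set against it. Leaving out mutant 2 keeps only mutant livers 1 and 3, whose 3′ to 5′ ratios were high (1.90 and 1.87). Of the genes called there only Smad7 changed sign with that ratio as a covariate, to 0.0829. A kept sign does not show that a difference held its size, and the covariate fit called 2 genes of any kind. The part of RNA quality in the calls without mutant 2 was not tested. Over the 7 lists together 15 of 83 tested genes were lower in mutants without overlap and 0 higher, against the 11% and 13% of all genes given above.

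Markers of several cell types, not all of them makers of collagen in liver, were measured alongside. None of 8 stellate cell markers tested passed (median -0.14), nor did any of 7 fibroblast (-0.01), 10 endothelial (-0.04), 7 smooth muscle and pericyte (-0.04), 2 bile duct (0.53), 3 Schwann cell (0.04), 2 adipocyte (0.12), 2 tendon cell (0.09) or 4 muscle fibre markers (-0.41). The summed intensity of the stellate markers was 1833 to 2195 in mutant and 1690 to 2374 in control liver. Of 8 Kupffer cell markers 1 rose, the complement receptor Vsig4, with 433, 323 and 445 in mutant livers, against 267, 207 and 195 in control livers (0.80, SE 0.184, adjusted p = 0.0453), and the median of the list was 0.39. That call ended when any array other than mutant 2 was left out (adjusted p = 0.0727 to 0.199 by limma) and on values as deposited, with no filter, no variance trend, the mean of probe sets, every probe set on its own or the fit of all 12 arrays (0.0616 to 0.155). The fits without 1 of those arrays called 0 to 43 genes of any kind. With that ratio of 3′ to 5′ signal in the model Vsig4 was at 0.473 (adjusted p = 0.700), and 2.33% of all genes were called higher in liver. The summed Kupffer marker intensity was 2610.1 to 3508 in mutant and 1854 to 2586 in control liver. Its part in the collagen values was not tested.

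In mutant muscle 0 of the 33 tested collagen genes and 0 of 58 tested probe sets (0.0074% of all probe sets) passed in limma, and 0 genes had an unadjusted p under 0.05. Of all 13131 genes tested in muscle 0.0152% passed and 4.26% had an unadjusted p under 0.05. The smallest p-values among collagens belonged to Col11a2 (0.85), Col23a1 (-0.35), Col4a4 (0.29), Col1a1 (0.59), Col1a2 (0.37) and Col16a1 (0.31), each with an adjusted p of 0.995. None of the 33 was higher or lower in mutants without overlap, against 4.33% higher and 5.22% lower among all genes tested.

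Type I and type III collagen were bright in muscle and overlapped between genotypes. Col1a1 read 2729, 3575 and 7287 in mutant muscles 1, 2 and 3, against 4282, 1172 and 4086 in control muscles. Col1a2 read 5430.3, 5786 and 9281 in mutant muscles, against 7048, 2854 and 6756 in control muscles. For both chains of type I collagen mutant 3 was the highest array and control 2 the lowest. Without control 2 the differences of Col1a1 and Col1a2 were -0.00939 and -0.0599. Col3a1 read 3613, 3241 and 5965 in mutant muscles, against 4646, 3413 and 4889 in control muscles (-0.05, SE 0.208). The median of the 10 tested fibrillar genes was 0.09, with 7 above 0 and 3 below, and it was -0.228 without mutant 3.

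All 6 type IV chains were tested in muscle, with a median of -0.01. Col4a1 read 715, 804 and 1627 in mutant muscles, against 941, 911 and 1444 in control muscles (-0.13, SE 0.279). Col4a2 read 548, 614 and 999 in mutant muscles, against 673, 618 and 885 in control muscles (-0.04, SE 0.210). The pair had the same order, with number 3 the highest array of each group. Col4a5, the α5 chain, read 65.4, 86.6 and 59.4 in mutant muscles, against 60.7, 83.3 and 63.3 in control muscles (0.02, SE 0.177), and here number 2 was the highest.

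The 17 other collagens tested in muscle had a median of 0.06, and type VI collagen, which anchors the basement membrane of the fibre to the matrix, was the brightest. Col6a1 read 939, 775 and 1543 in mutant muscles, against 1013, 748 and 1164 in control muscles (0.11, SE 0.234). Col6a2 read 702, 517 and 1197 in mutant muscles, against 709, 575 and 845 in control muscles (0.11, SE 0.256). Col6a3 read 622, 521 and 1117 in mutant muscles, against 698, 551 and 858 in control muscles (0.04, SE 0.251). All 3 chains were highest in mutant 3, and without that array their differences were -0.167, -0.214 and -0.274. Col18a1 was dim in muscle, with 35.7, 52.4 and 88.9 in mutant muscles and 55.0, 34.4 and 75.6 in control muscles (0.06, SE 0.284, 95% interval -0.57 to 0.69). Of the 9 collagens too dim for testing in muscle, Col17a1 and Col26a1 were higher in every mutant, with intensities of 15.5 at most, and had adjusted p-values of 0.984 with no filter. The share without overlap over all genes below the muscle filter is not given here. Where several probe sets of a collagen were tested in muscle, their differences had 1 sign in 11 of 20 genes.

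**Figure D3:**
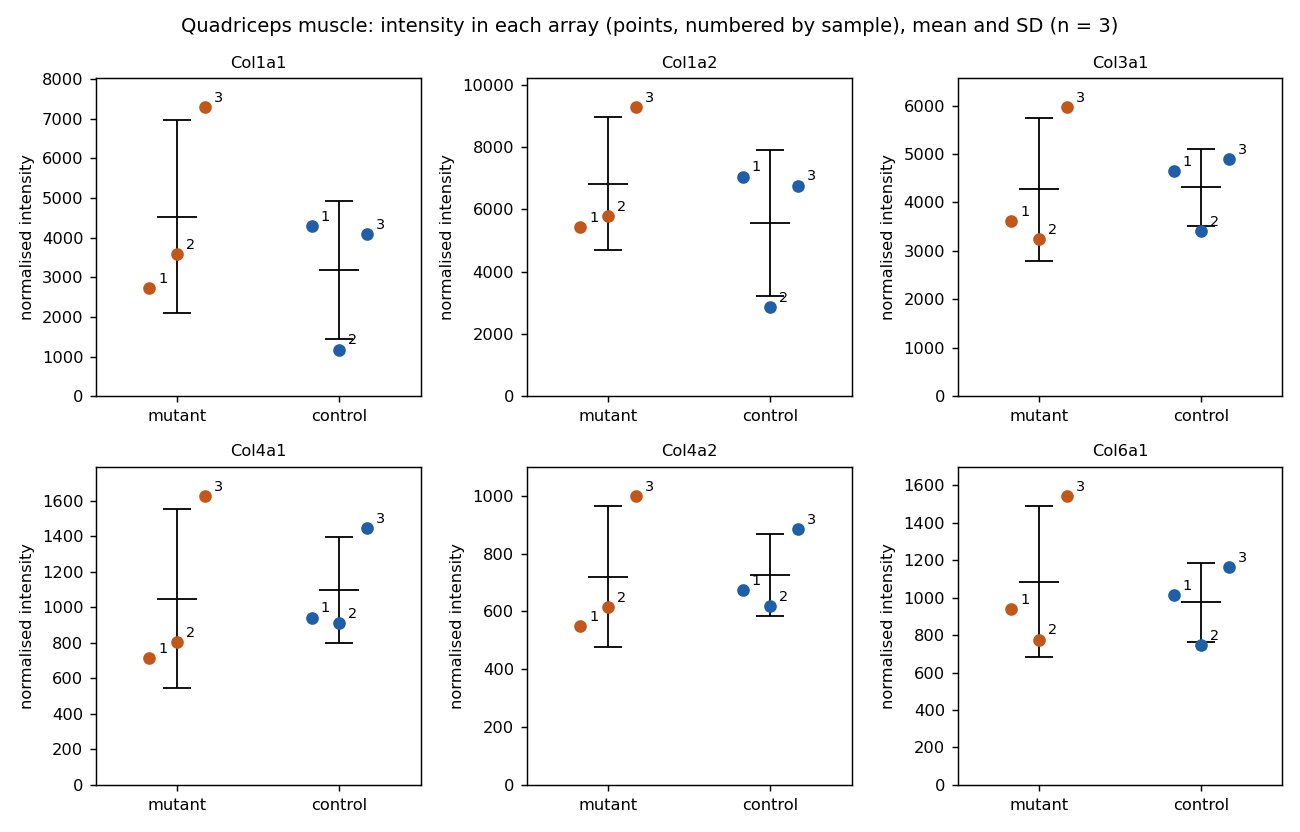
Normalised intensity (linear axis from 0) of 6 bright collagen genes in each quadriceps muscle array, mutants left of controls; points are arrays numbered by sample, the wide bar is the mean and the whiskers are the SD (n = 3). Mutant 3 is the highest array in all 6 panels and the groups overlap in each.

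Over all 33 tested collagens mutant muscle 3 was the highest array for 21 genes. Mutant muscle 2 was the lowest for 11 and control muscle 2 for 12. The median log2 distance of the fibrillar genes from the control mean was -0.05, -0.32 and 0.82 in mutant muscles and 0.23, -0.45 and 0.29 in control muscles. Tendon cell markers, of which 7 of 8 were tested and 0 passed, followed the same order at the extremes. Their median distance was 0.24, 0.02 and 1.40 in mutant muscles and 0.63, -1.05 and 0.40 in control muscles. Their summed intensity was 3374, 2925 and 6958 in mutant muscles, against 4607, 1344 and 3892 in control muscles, and none of the 7 was at 0. Tnmd, the tendon membrane protein tenomodulin, read 370, 277 and 876 in mutant muscles, against 477, 93.0 and 427 in control muscles. Its part in the collagen values was not tested.

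**Figure D4:**
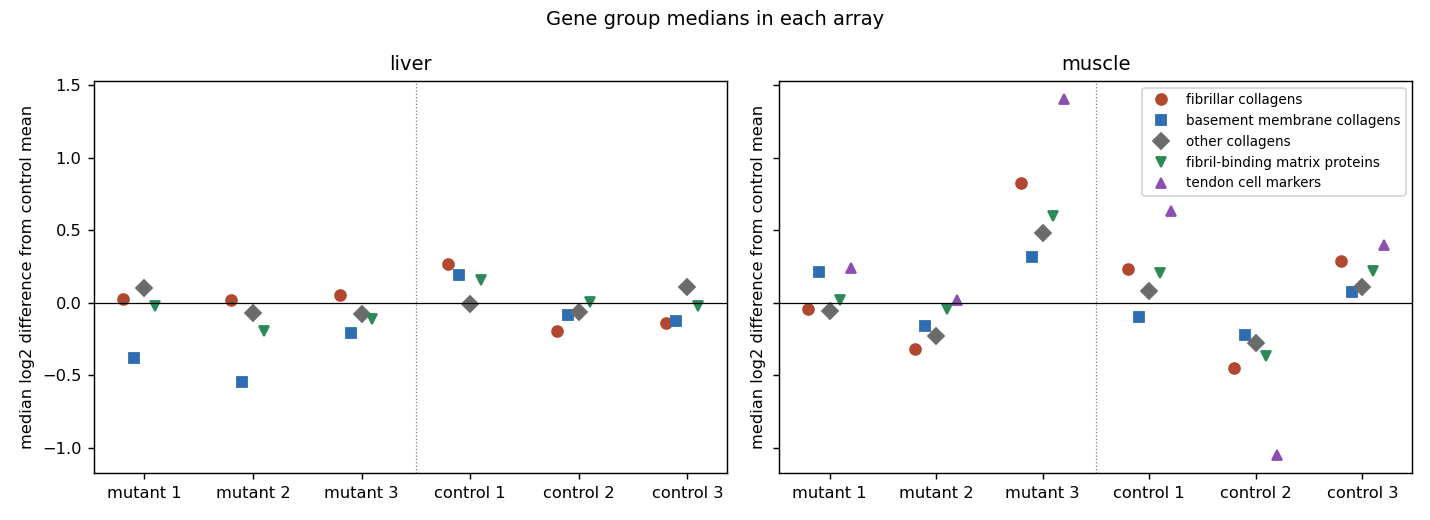
Median log2 distance from the control mean over the tested genes of each group (points) in each array, liver left and quadriceps muscle right, mutants left of controls; the tendon marker list is drawn for muscle only. In muscle the fibrillar collagens (0.82), fibril-binding proteins (0.59) and tendon markers (1.40) are highest in mutant 3, and lowest in control 2.

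No member of the 7 lists of collagen-related genes passed in muscle. Their medians were 0.01 for modification and secretion (17 genes tested), 0.23 for cleavage and cross-linking (9), 0.20 for breakdown and uptake (13), -0.05 for receptors (9), 0.22 for fibril-binding proteins (20), 0.17 for non-collagen basement membrane proteins (14) and 0.08 for the transforming growth factor beta pathway (16), against -0.000224 over all genes. The smallest p belonged to Ccn2, the connective tissue growth factor, with 308, 279 and 570.2 in mutant muscles, against 252, 120.3 and 171 in control muscles (1.01, SE 0.286, adjusted p = 0.995). The groups did not overlap for Ccn2, nor for the TGF-beta co-receptor Tgfbr3 (0.43), the collagen uptake receptor Mrc2 (0.54), the protease inhibitor Timp3 (0.27), Sec23a (0.23) and P3h4 (0.41), of secretion and modification, or the fibril binder Omd (0.62). These were the 7 such genes of 97 tested over the 7 lists, all higher in mutants, against 4.33% higher and 5.22% lower without overlap among all genes. None of these passed (adjusted p = 0.995). Loxl3 (0.32) and Loxl4 (-0.20), of cross-linking, the integrin Itga1 (0.19), the fibril binder Lum (0.32) and the laminins Lama4 (0.38) and Lamb2 (0.27) overlapped and had the same adjusted p. Medians of the other marker lists, with 0 genes past the threshold, were 0.18 for fibroblasts (10 tested), 0.45 for adipocytes (5), 0.14 for Schwann cells (5), 0.05 for endothelial cells (8), 0.07 for stellate markers (5), -0.03 for smooth muscle cells and pericytes (7), -0.00139 for muscle fibres (10), -0.24 for Kupffer markers (5), -0.22 for bile duct markers (3) and -0.09 for hepatocyte markers (4).

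Whether the response to the mutation differed between the tissues was tested over the 24 collagens tested in both. No gene passed the interaction term in limma, against 1.42% of all 11841 genes tested, and 2 had an unadjusted p under 0.05, against 15.5%. Those were Col18a1, with a liver minus muscle difference of -1.08 (SE 0.375, 95% interval -1.88 to -0.28, adjusted p = 0.176), and Col20a1, with 0.96 (SE 0.416, adjusted p = 0.278). Col4a2 was next, with -0.52 (SE 0.295, adjusted p = 0.431). The call of Col18a1 in liver and its absence in muscle are thus not shown to differ.

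Collagen levels differed far more between the tissues than between the genotypes. Of the 24 collagen genes above the filter in both tissues 13 were higher in control muscle than in control liver and 2 were lower, against 28.7% higher and 25.4% lower among all 11841 such genes. In the mutant animals 13 were higher and 2 lower, of which 12 and 2 were those called in controls, while 27.5% and 28.2% of all genes were called. By class, higher calls in control muscle went to 5 of 7 fibrillar genes, 3 of 4 basement membrane genes and 5 of 13 other genes, with median differences of 1.71, 2.37 and 0.41, against 0.0225 over all genes. A further 11 collagens were above the filter in 1 tissue only, and a gene kept through 1 tissue is bound to be higher there. With them the counts in control muscle were 21 of 35 higher and 4 lower, against 28.3% and 26% of 14617 genes, and the class medians were 2.16, 1.35 and 0.67, so the order of fibrillar and basement membrane genes turned. With each probe set on its own, filtered in the same way, 37 of 63 were higher and 7 lower, against 25.1% and 21.9% of all probe sets. These values come from quantile normalization over all 12 arrays together.

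Among genes above the filter in both tissues the largest differences were those of fibril formers. Col1a2 averaged 7420.0 ± 2861 in control muscle and 111 ± 23.3 in control liver (5.80, SE 0.246, adjusted p = 4.71e-12), and Col3a1 6185 ± 1102 and 119 ± 32.1 (5.53, SE 0.214, adjusted p = 1.41e-12). Col6a1 of the beaded filaments came next, with 1383 ± 326 in control muscle and 56.6 ± 7.83 in control liver (4.25, SE 0.279). The probe sets from which Col1a1 and Col5a2 were read were too dim to be tested in liver, so their tissue differences are given as levels without a test. Col1a1 averaged 4571 ± 2500.1 in control muscle and 25.4 ± 15.4 in control liver, and Col5a2 589 ± 202 and 19.3 ± 18.8. The fitted difference of Col1a1 was 6.64, whereas its other probe set, which was above the filter in both tissues, gave 4.59 (SE 0.256, adjusted p = 1.44e-10 by limma). Every array of control muscle was above every array of control liver for these 5 genes.

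Col18a1 ran the other way by the widest margin of any collagen compared. It averaged 69.5 ± 24.9 in control muscle and 2895 ± 237 in control liver (-5.13, SE 0.262, adjusted p = 5.39e-11). In the mutants it averaged 74.5 ± 33.1 in muscle and 1496 ± 494 in liver (-4.08, SE 0.262, adjusted p = 1.06e-09). Col27a1 was lower in control muscle as well (-0.76, SE 0.262, adjusted p = 0.0224), but did not pass without control liver 1 (-0.381, adjusted p = 0.142), control muscle 2 (0.0539) or control muscle 3 (0.0775). Col14a1 had -0.52 and did not pass (adjusted p = 0.118), though it did on values as deposited (-1.06, adjusted p = 0.00332). The membrane-spanning collagens Col13a1 and Col25a1 were too dim to be tested in muscle and are given as levels only. Col13a1 averaged 6.95 ± 3.15 in control muscle and 48.5 ± 12.6 in control liver. Col25a1 averaged 20.5 ± 15.8 in control muscle and 53.2 ± 10.3 in control liver, and its fitted difference of -0.997 was -0.295 for the mean of its probe sets.

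**Figure D5:**
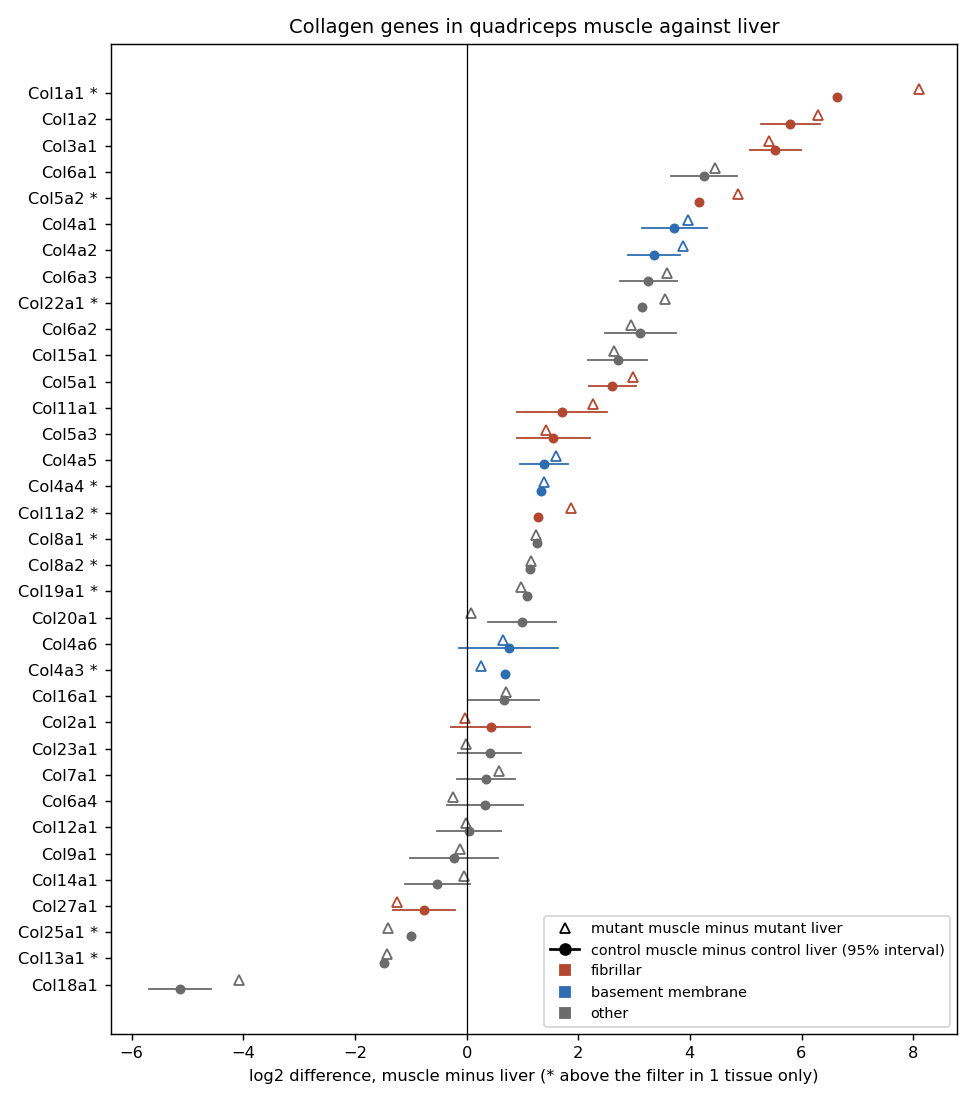
Log2 difference, muscle minus liver, of 35 collagen genes, ordered by the control difference and coloured by class; triangles are mutant muscle minus mutant liver, filled points control muscle minus control liver, with the 95% interval (bars) for the 24 genes above the filter in both tissues. A star marks the 11 genes above it in 1 tissue only; Col1a2 (5.80 in controls) is the highest gene without a star and Col18a1 (-5.13) the lowest.

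The windows before the starts of Col1a2 (chr6:4505368-4505617) and Col3a1 (chr1:45311288-45311537), both on the plus strand of GRCm38.p6, are shown for comparison with those of Col18a1, since these genes lie at the opposite end of the tissue difference. Capitals mark the same 5 motifs.
Col1a2: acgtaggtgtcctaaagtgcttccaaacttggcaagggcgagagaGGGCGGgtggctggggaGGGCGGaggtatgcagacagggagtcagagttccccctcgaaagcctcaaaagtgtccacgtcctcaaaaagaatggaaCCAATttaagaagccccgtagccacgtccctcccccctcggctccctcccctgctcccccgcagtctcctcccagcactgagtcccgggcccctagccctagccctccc
Col3a1: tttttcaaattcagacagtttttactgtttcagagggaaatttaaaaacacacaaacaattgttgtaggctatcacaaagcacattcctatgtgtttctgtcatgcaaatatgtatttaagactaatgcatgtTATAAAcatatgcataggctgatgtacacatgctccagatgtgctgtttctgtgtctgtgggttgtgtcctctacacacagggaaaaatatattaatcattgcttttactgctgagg
Col1a2 held 1 CCAAT and 2 GGGCGG, and Col3a1 held 1 TATAAA. RefSeq windows were at hand for 33 of the 42 genes.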

How the data were processed

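Total RNA of liver and quadriceps muscle was hybridised to Affymetrix Murine 430 2.0 arrays, per the labels. The values deposited by the authors are linear probe set intensity, 1 column per array. The algorithm and scaling behind them were not given in the sources used here. The series' design text names d-Chip for clustering only. No detection calls were used, and precision is limited by how many arrays there are.

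Of 45101 probe sets 64 controls were left out. The rest had a single symbol (34945), several (932) or none (9160). Through Entrez identifiers 34741 were matched to the RefSeq gene table. A gene was read from its brightest probe set, by mean log2 value across the 12 arrays. Intensity was quantile normalised within each tissue, or over all arrays for the tissue comparison, and then taken as log2(value + 16). Normalization was used because array medians differed by 0.38 in liver (0.09 in muscle) on that log2 scale. Genes whose tissue mean exceeded the 40th percentile over probe sets were tested with limma 3.58.1 in R 4.3.3 (lmFit, eBayes with a trend). The tissue comparison and the interaction were separate fits, each of all 12 arrays. The former took genes above the filter in either tissue and the latter genes above it in both. Adjustment was by Benjamini-Hochberg over all genes, with a threshold of 0.05. That code was tested on simulated data. Plots and sequence searches used Python 3.11.15 and matplotlib 3.10.9. Promoter windows are from RefSeq.

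Arrays of a tissue correlated at 0.941 to 0.959 in liver and 0.962 to 0.971 in muscle, so none was a copy. The members, the collagen classes and 18 other lists (209 entries, 191 measured; collagen modification and secretion, cleavage and cross-linking, breakdown, receptors, fibril-binding and basement membrane proteins, transforming growth factor beta pathway, and cell type markers) were chosen with earlier results of these data known. Named were Col18a1, collagens past the threshold, the 3 brightest of each class, up to 6 with the smallest p in each tissue, up to 4 passing or 2 other members of each list, and the 5 largest tissue differences each way. Alternatives changed the offset, filter, normalization, variance trend, probe set choice, array weights, replicate block, a 3′ to 5′ ratio covariate and the arrays included.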

Additional observations from a re-analysis of the deposited data

Results flagged for a closer look

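Cd5l, a protein secreted by macrophages that was followed as a Kupffer cell marker, was picked out by the interaction term as responding differently to the mutation in the tissues. The liver minus muscle difference was 1.12 on the log2 scale (SE 0.242, adjusted p = 0.0358 by limma). It read 723, 664.5 and 771 in mutant livers, against 581, 653 and 408 in control livers, and 6.27, 8.47 and 8.45 in mutant muscles, against 25.9, 20.3 and 22.7 in control muscles. In neither tissue alone did it pass, with 0.41 in liver (adjusted p = 0.245) and -0.71 in muscle (adjusted p = 0.995), where the signal was dim. The mutant muscles lay below the muscle filter of about 13.1 and the gene was tested there through the controls, so the interaction call rests on a level near background. Its relation to the collagen values was not tested.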

How the results depend on the processing

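The number of arrays and the dim signal of many collagens limit these results. In liver the count of lower collagen genes was 0 with no filter, no variance trend, the replicate block and the 3′ to 5′ covariate. It was 0 to 1 with single arrays left out. Genes of any kind called in the former fits numbered 219, 0, 11 and 2 in that order, against 447 in the main fit. They numbered 0 without mutant 1 or control 2, 43 without mutant 3, 27 without control 1 and 26 without control 3. Calls were thus lost across all genes, not only collagens. With every probe set on its own 2 probe sets, both of Col18a1, were lower, and this number was 0 as deposited, 1 under median centring, 0 under the block and 0 to 2 with single arrays left out. Same-numbered arrays of mutants and controls did not deviate together (correlation -0.068 to -0.0047 in liver, 0.023 to 0.14 in muscle), so the numbers pair no samples; with the replicate block the adjusted p of Col18a1 in liver was 0.0573, and those of Fn1, Mia3 and Vsig4 were 0.0573, 0.0614 and 0.0793. Apart from those settings, the fit without mutants 1 and 3 and single arrays left out, Col18a1 passed in the 9 other fits run, at -1.06 to -0.817. The fibrillar median in liver was -0.134 with offset 1, -0.0769 with offset 64, -0.0314 at the 60th percentile filter, -0.132 as deposited, -0.137 under median centring, 0.00446 for the mean of probe sets, -0.0463 for every probe set, -0.150 with weights, 0.138 with the covariate, 0.0183 without mutants 1 and 3, and -0.216 to 0.0210 with single arrays left out. That of basement membrane genes was 0.0170 with no filter, -0.475 at the 60th percentile, -0.544 with the covariate, and -0.383 to -0.207 with single arrays left out, and that of other collagens -0.0751 to 0.117 with single arrays left out. Muscle medians with single arrays left out were -0.228 to 0.345 for fibrillar genes. Muscle over liver gave 37 higher and 7 lower probe sets, and 19 to 22 higher and 2 to 4 lower genes with single arrays left out, with 2 lower without control muscle 3. These counts include collagens above the filter in 1 tissue only, which are bound to be higher there. No collagen passed in muscle or the interaction under any setting. Signs turned for calls that had not passed: in liver Ctsb (0.0145 as deposited, 0.00961 under median centring), Col6a2 (-0.0353 for the mean of probe sets), Col3a1 (-0.288 with the covariate, -0.212 without mutants 1 and 3), Col4a6 (-0.901 with the covariate) and Smad7 (0.0829 and 0.0713 in those fits), in muscle Col4a2 (0.00318 under median centring), Col18a1 and Itga1 (-0.0447 and -0.0917 for the mean of probe sets), and Col18a1 and Col6a3 (-0.0206 and -0.0260 with weights). Col25a1, too dim to be tested in muscle, had a fitted tissue difference of -0.295 for the mean of probe sets and -0.775 without control muscle 3. With single arrays left out, signs also turned for Col3a1 (-0.0920 to 0.241) and Col6a2 (-0.0448 to 0.514) in liver and, in muscle, for Col18a1 (-0.210 to 0.297), Col1a1 (-0.00939 to 0.918), Col1a2 (-0.0599 to 0.596), Col3a1 (-0.315 to 0.124), Col4a1 (-0.497 to 0.0883), Col4a2 (-0.296 to 0.126), Col4a5 (-0.109 to 0.138), Col6a1 (-0.167 to 0.323), Col6a2 (-0.214 to 0.380) and Col6a3 (-0.274 to 0.265). The causes were not tested.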
